A study of Mus musculus with 4 samples.

Results

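The genes described here encode Polycomb repressive complexes, the MLL histone methyltransferase complex and the cofactors that couple it to transcription elongation. They were taken as a list of symbols, and all 45 listed genes had a row among the 23284 gene rows of the 4 libraries (Kmt2a under its older symbol Mll1). All 45 also passed the filter on low counts, with between 355 and 32043 reads per gene and library. Every gene of the list was therefore measured in both genotypes. The list was not chosen by measured values of single genes, although earlier results of these data were known when it was drawn up.

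Polycomb complexes keep genes silent. PRC2 places a repressive methyl mark on histone H3, and PRC1 reads that mark through its CBX subunits and ubiquitylates histone H2A through its RING subunits. MLL, the product of Kmt2a, opposes them at HOX genes, and in MLL leukemia its amino-terminal part is fused to a partner protein that recruits the H3 methyltransferase DOT1L and the elongation kinase CDK9. Leukemic cells of this kind are known to need menin, LEDGF, DOT1L and several Polycomb proteins for their self-renewal.

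The libraries hold RNA of c-Kit high leukemic cells from C57BL/6 mice, c-Kit being the receptor for stem cell factor. They came from 2 mice that lack Msi2 (Msi2 -/-) and 2 mice with loxP-flanked alleles (Msi2 flox/flox, called control), with 1 library per mouse. The series title places the leukemia under MLL, but the fusion, the way the leukemia was started, the Cre line and the age of the mice are not named by the sources used here. Gene counts cover a whole gene, so reads from an introduced MLL fusion, if it holds sequence of Kmt2a or of a partner such as Mllt3, cannot be told apart from reads of the normal genes.

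Libraries held between 72273679 and 87564774 gene reads. Msi2, the deleted gene, had 2804 and 3562 reads in the controls and 8 and 17 in the Msi2 -/- libraries. Kit, the gene of the sorted receptor, stood at 50.4 and 51.9 CPM (gene counts relative to the scaled library size) in control mice, compared with 68.1 and 57.1 CPM in Msi2 -/- mice. Mpo, for the myeloperoxidase of granulocyte progenitors, was lower, at 4001 and 4953 CPM against 2117 and 2159 CPM (log2 fold change -1.07, adjusted p = 8.36e-12 by DESeq2, adjusted p = 0.265 by edgeR). Cd34 varied from 7.02 to 79.8 CPM without separating the groups. Elane, Ctsg and Prtn3, also progenitor markers, overlapped between the groups (log2 fold changes 0.29, -0.23 and 0.14). Of the 8 leukemic progenitor markers, 5 lay above 0 and 3 below. Together they summed to 13169 and 13447 CPM in control mice, compared with 9079 and 14555 CPM in Msi2 -/- mice. Late neutrophil markers summed to 1021 and 658 CPM in control mice, compared with 1395 and 2221 CPM in Msi2 -/- mice. They did not move together. Ltf, Lcn2, S100a8 and S100a9 were higher in both Msi2 -/- libraries, and DESeq2 called these 4. Ngp and Camp overlapped between the groups. Mmp9 was lower, and so was Cxcr2, at 6.59 and 9.40 CPM against 1.58 and 3.57 CPM (log2 fold change -1.63, adjusted p = 0.0318 by DESeq2). Macrophage markers summed to 51.8 and 77.7 CPM against 60.7 and 152 CPM, with C1qc at 0 in all 4 libraries. T cell markers summed to 9.65 and 11.3 CPM against 6.91 and 10.6 CPM, most of it Lck, with Cd3e and Cd3g at 0 throughout. B cell markers summed to 26.7 and 26.7 CPM against 20.9 and 18.7 CPM, nearly all of it Cd79b, which DESeq2 called lower (adjusted p = 0.0387), while Ms4a1 and Pax5 were at 0 throughout. The natural killer list summed to 122 and 178 CPM against 22.9 and 148 CPM, nearly all of it Nkg7, and its defining gene Ncr1 was at 0 in all 4. Erythroid markers summed to at most 1.65 CPM in any library. Megakaryocyte markers summed to between 6.20 and 12.3 CPM, and stromal and endothelial markers to between 0.439 and 1.02 CPM. In bulk samples of this kind, fewer cells of a type and less RNA per cell cannot be told apart. The part of these marker differences in the results below was not tested.

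The Polycomb, MLL and elongation genes had small fold changes between Msi2 -/- and control cells. Of 45 genes, 20 had a log2 fold change (Msi2 -/- minus control) above 0 and 25 below, where 49.7% and 50.3% of all genes tested did, and the extremes were 0.45 for Phf1 and -0.41 for Psip1. Their median was -0.02. The median absolute log2 fold change was 0.102, against 0.177 over all 13215 genes tested and 0.135 over the 9549 genes whose mean CPM was at least that of the least abundant member (6.13 CPM). No member lay beyond 0.5 in either direction, whereas 18.9% of all genes tested did, and 8.33% of those 9549.

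By edgeR's quasi-likelihood test with Benjamini-Hochberg adjustment over all genes, 0 of 45 members passed an adjusted p of 0.05 in either direction, with a lowest adjusted p of 0.335. The background was equally sparse, at 0% higher and 0.00757% lower (1 gene of 13215, Ikzf2). The deleted gene Msi2 itself did not pass this test (log2 fold change -8.07, adjusted p = 0.122 by edgeR), so a count of 0 says little about smaller changes. At an unadjusted edgeR p under 0.05 there were 2 members, Pcgf5 on the higher side and Ash2l on the lower, or 4.44% against 12.9% of all genes tested. DESeq2 called 1 member higher, Pcgf5, and 0 lower, where its background was 3.12% and 2.73%. The likelihood ratio test of edgeR called 0 members, against a background of 0.908% higher and 1.45% lower. The groups did not overlap for 21 members (11 higher and 10 lower), a share of 46.7% against 48.3% of all genes tested (23.7% higher and 24.6% lower).

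Failure to pass a test does not show equality, and the intervals say how much room is left. The 95% interval of the log2 fold change lay within 1 (a 2-fold change) on both sides of 0 for 42 members and within 1.5-fold for 34. The exceptions to the first bound were Cbx2, Cbx6 and Phc1, whose replicates differed most. The plot of fold changes with their intervals shows these 3 as the only long bars.

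**Figure D1:**
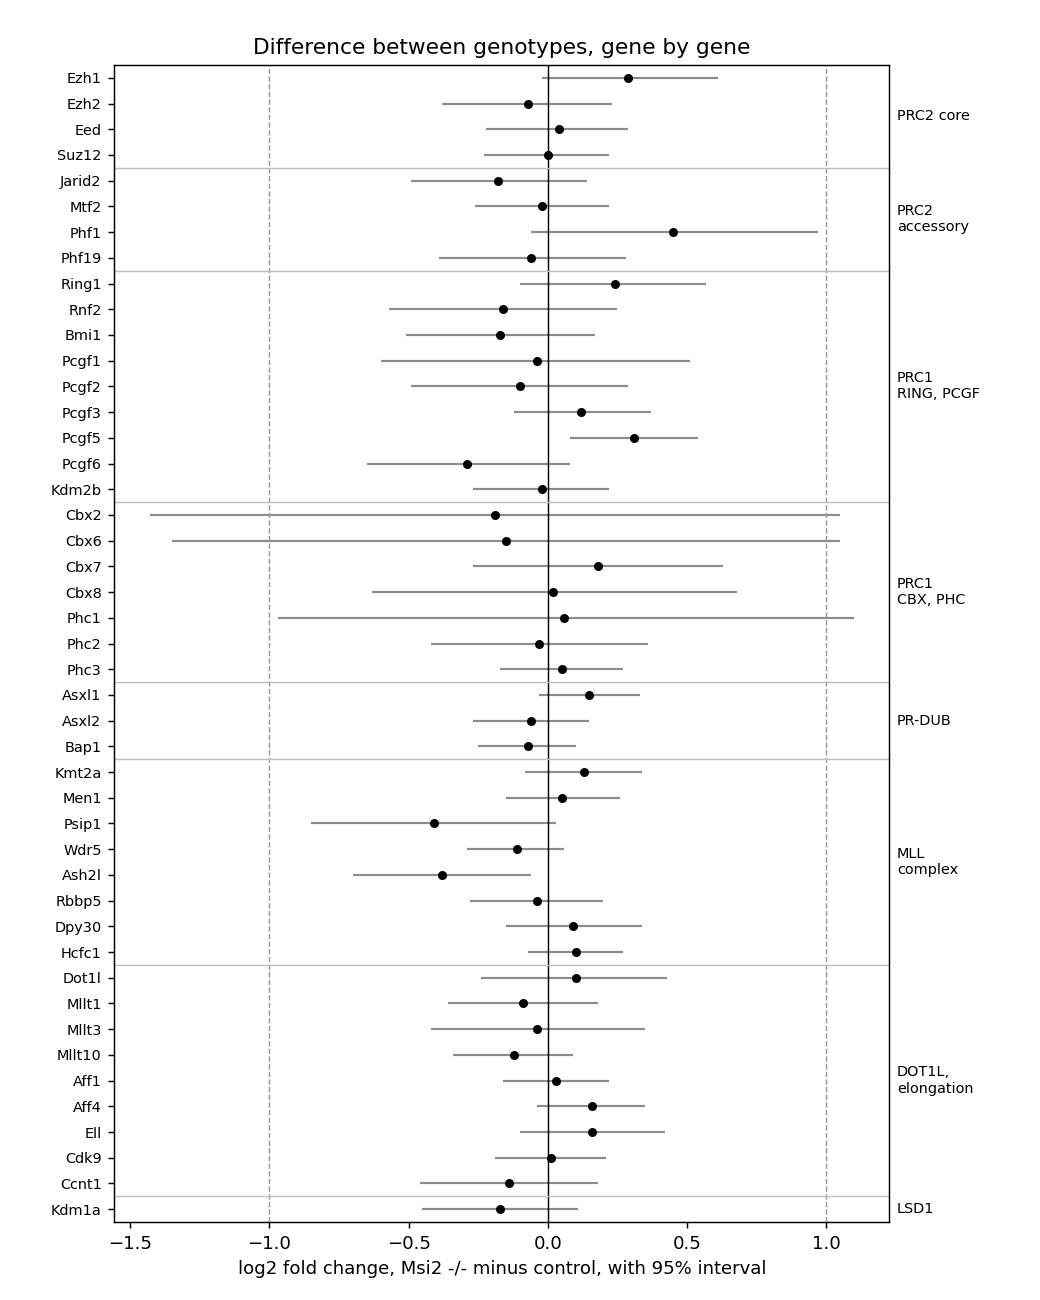
Log2 fold change (x axis, Msi2 -/- minus control) of each of the 45 genes (y axis, ordered by complex), with points for edgeR's estimate and bars for its 95% interval; dashed lines mark a 2-fold change. All points lie between -0.41 and 0.45, and only the bars of Cbx2, Cbx6 and Phc1 cross a dashed line.

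The core of PRC2 is made of the methyltransferase Ezh2 or its relative Ezh1, the mark reader Eed and the scaffold Suz12. Ezh2 stood at 111 and 121 CPM in control mice, compared with 119 and 101 CPM in Msi2 -/- mice (log2 fold change -0.07 with standard error 0.112, 95% interval -0.38 to 0.23, adjusted p = 0.807 by edgeR). The Msi2 -/- libraries lay on either side of the lower control. Eed had 66.5 and 67.5 CPM against 73.5 and 63.9 CPM (log2 fold change 0.04 with standard error 0.094, adjusted p = 0.896 by edgeR), again with overlap.

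Suz12, the most abundant of the 4 in reads, had 305 and 341 CPM in control mice, compared with 320 and 324 CPM in Msi2 -/- mice (95% interval -0.23 to 0.22, adjusted p = 0.987 by edgeR). Both Msi2 -/- values lay between the controls. Ezh1, the less active enzyme, which is typical of quiescent cells, was at 31.8 and 31.2 CPM against 35.7 and 41.6 CPM (log2 fold change 0.29 with standard error 0.117, 95% interval -0.02 to 0.61, adjusted p = 0.405 by edgeR, adjusted p = 0.257 by DESeq2). Its groups did not overlap, but neither tool called it.

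Accessory subunits steer PRC2 to its sites. Phf1, a Polycomb-like protein gene, had the highest fold change of all 45, at 15.6 and 13.7 CPM in control mice, compared with 22.8 and 17.4 CPM in Msi2 -/- mice (log2 fold change 0.45 with standard error 0.191, 95% interval -0.06 to 0.97, adjusted p = 0.416 by edgeR). Its relatives Mtf2 (137 and 133 against 124 and 142 CPM) and Phf19 (47.5 and 45.2 against 40.4 and 48.7 CPM) overlapped between groups. Jarid2, which helps to recruit PRC2, had 173 CPM in control 1, apart from 141 CPM in control 2 and 138 and 139 CPM in the Msi2 -/- libraries. Without control 1 its log2 fold change was -0.02, against -0.18 with all libraries.

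In PRC1, the ubiquitin ligase is Ring1 or Rnf2, paired with 1 of several PCGF proteins that set the type of complex. Rnf2 had 51.1 and 55.1 CPM in control mice, compared with 53.5 and 41.5 CPM in Msi2 -/- mice (log2 fold change -0.16 with standard error 0.15, adjusted p = 0.681 by edgeR), with overlap. Ring1 had 24.9 and 28.5 CPM against 32.9 and 30.2 CPM (log2 fold change 0.24 with standard error 0.124, adjusted p = 0.475 by edgeR), with both Msi2 -/- values above both controls.

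Bmi1, the PCGF gene best known for self-renewal of blood stem cells and for silencing Cdkn2a, had 47.5 and 45.5 CPM in the controls. In the Msi2 -/- libraries it had 45.3 and 37.4 CPM (log2 fold change -0.17 with standard error 0.126, 95% interval -0.51 to 0.17, adjusted p = 0.608 by edgeR). Replicate 1 was thus only just below the lower control. Pcgf2, the closest relative of Bmi1, overlapped between the groups at 16.7 and 18.6 against 15.4 and 17.4 CPM.

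Pcgf5, a subunit of variant PRC1, had the smallest p of the list. It stood at 39.5 and 40.6 CPM in control mice, compared with 51.2 and 48.2 CPM in Msi2 -/- mice, a 1.24-fold difference (log2 fold change 0.31 with standard error 0.0858, 95% interval 0.08 to 0.54). Both Msi2 -/- values lay above both controls, and the replicates of each group were close together. DESeq2 called it at an adjusted p of 0.0487, while edgeR did not (adjusted p = 0.335). With any 1 library left out, DESeq2 no longer called it, at adjusted p between 0.309 (without Msi2 -/- replicate 2) and 0.989 (without control 2); its log2 fold change by edgeR ran from 0.28 to 0.35. Pcgf6, of another variant complex, lay on the other side at 22.5 and 26.3 against 20.6 and 19.4 CPM (log2 fold change -0.29 with standard error 0.135, adjusted p = 0.443 by edgeR). Pcgf3 (0.12), Pcgf1 (-0.04) and Kdm2b (-0.02), whose protein brings PCGF1 complexes to CpG islands, had smaller log2 fold changes, with edgeR adjusted p of 0.595, 0.95 and 0.939.

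The CBX and PHC genes encode the chromodomain and polymerizing subunits of canonical PRC1. Cbx7 had 9.70 and 10.4 CPM in control mice, compared with 12.1 and 10.6 CPM in Msi2 -/- mice (log2 fold change 0.18 with standard error 0.167, adjusted p = 0.685 by edgeR). Cbx8, a known partner of MLL fusion proteins, had 5.14 and 7.01 CPM against 6.04 and 6.32 CPM (log2 fold change 0.02 with standard error 0.243, adjusted p = 0.977 by edgeR). Both Msi2 -/- values of Cbx8 lay between the controls. Phc2 and Phc3 had log2 fold changes of -0.03 and 0.05, with overlap.

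The members that varied most did so within a genotype. Cbx6 was high in the libraries numbered 2 and low in those numbered 1, at 58.6 and 101 CPM in control mice, compared with 47.2 and 96.8 CPM in Msi2 -/- mice. The numbers are not stated to pair mice. Cbx2 had 4.38 and 10.3 CPM in the controls, with both Msi2 -/- libraries between them at 6.98 and 5.84 CPM. Phc1 had its extremes in the Msi2 -/- mice, 12.8 CPM in replicate 1 and 6.45 CPM in replicate 2, around controls at 8.23 and 10.2 CPM. In Cbx6, 9.7% of the exon bases overlap Npcd on the same strand in the GENCODE vM21 annotation. Since the strand setting of the counting is not known, overlaps on the opposite strand bear on the counts too, and they were larger for Mllt10 (14.4% with Dnajc1), Eed (12.6%), Kdm2b (10.7% with Rnf34) and Mtf2 (9.73% with Tmed5). The reads of these genes are uncertain to that extent.

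**Figure D2:**
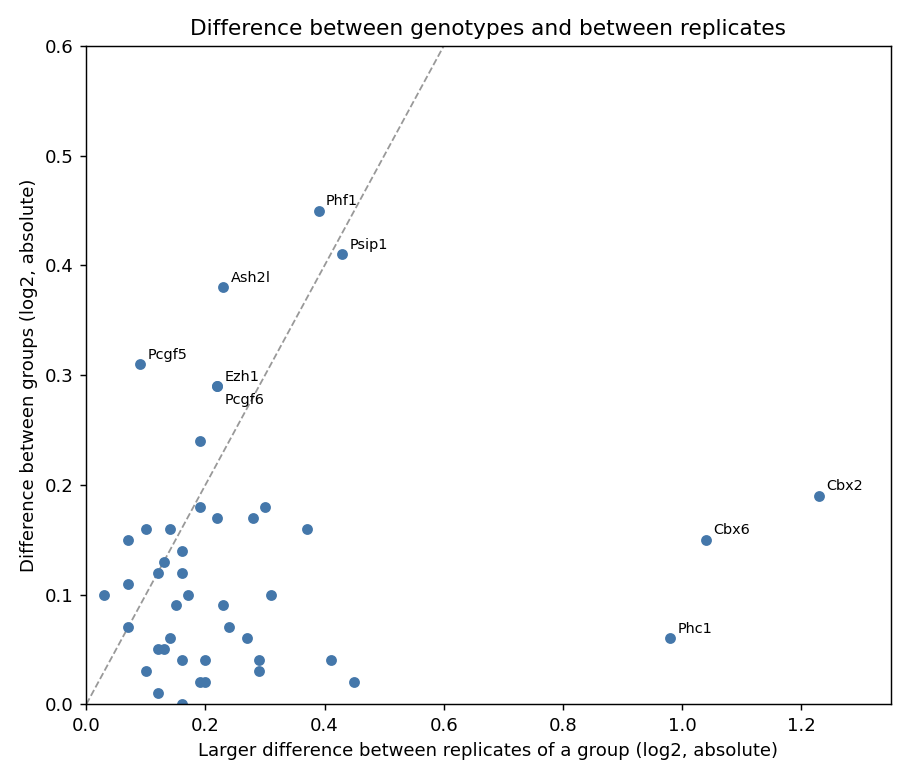
Absolute log2 difference between the groups (y axis) against the larger absolute log2 difference between the 2 replicates of a group (x axis) for each of the 45 genes; the dashed line marks equality, and genes above 0.28 on the y axis or 0.5 on the x axis are named. For 31 genes the gap between replicates exceeded the group difference, and Cbx2, Cbx6 and Phc1 lie far to the right.

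The plot of group difference against replicate gap orders the list by how far genotype stood out from the spread between mice. For 31 of 45 genes the larger gap between replicates exceeded the difference between groups. Pcgf5 and Ash2l lay furthest above the line among the genes with a difference over 0.28.

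Bap1, a deubiquitinase that removes the PRC1 mark, and its cofactors Asxl1 and Asxl2 form PR-DUB. Bap1 had 125 and 131 CPM in control mice, compared with 120 and 123 CPM in Msi2 -/- mice (log2 fold change -0.07, 95% interval -0.25 to 0.10). Asxl1, which is recurrently mutated in myeloid leukemia, had 132 and 126 CPM against 145 and 141 CPM (log2 fold change 0.15 with standard error 0.0666, 95% interval -0.03 to 0.33, adjusted p = 0.428 by edgeR). Asxl2 overlapped between the groups, with a log2 fold change of -0.06.

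Kmt2a, which encodes MLL itself, had 235 and 247 CPM in control mice, compared with 252 and 276 CPM in Msi2 -/- mice. Both Msi2 -/- values lay above both controls, by little (log2 fold change 0.13 with standard error 0.0787, 95% interval -0.08 to 0.34, adjusted p = 0.534 by edgeR). Men1, for menin, which tethers MLL to chromatin, had 91.6 and 100 CPM against 98.8 and 100 CPM (log2 fold change 0.05 with standard error 0.0748, adjusted p = 0.784 by edgeR), with overlap. Psip1, for LEDGF, the chromatin reader bound by menin and MLL, had the lowest fold change of the list.

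Psip1 stood at 97.7 and 132 CPM in control mice, compared with 89.4 and 84.0 CPM in Msi2 -/- mice (log2 fold change -0.41 with standard error 0.163, 95% interval -0.85 to 0.03, adjusted p = 0.406 by edgeR, adjusted p = 0.228 by DESeq2). The groups did not overlap, but control 1 was nearer to the Msi2 -/- libraries than to control 2. Its log2 fold change was -0.17 without control 2 and -0.60 without control 1, where DESeq2 called it at an adjusted p of 0.00938, the only member among the 1.41% of genes it then called lower.

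The shared core of all MLL-family complexes, Wdr5, Rbbp5, Ash2l and Dpy30, activates the methyltransferase. Ash2l was the 1 gene of that core with an unadjusted edgeR p under 0.05 (0.0299), at 160 and 141 CPM in control mice, compared with 106 and 125 CPM in Msi2 -/- mice. Both Msi2 -/- values lay below both controls (log2 fold change -0.38 with standard error 0.119, 95% interval -0.70 to -0.06, adjusted p = 0.357 by edgeR, adjusted p = 0.108 by DESeq2). Without Msi2 -/- replicate 2 DESeq2 called it at an adjusted p of 0.0314, with 4.71% of genes called lower in that fit, and leaving out a library moved its log2 fold change between -0.50 and -0.26. Wdr5 had 219 and 215 CPM against 197 and 206 CPM (log2 fold change -0.11 with standard error 0.065, adjusted p = 0.522 by edgeR). Rbbp5 and Dpy30 overlapped between the groups at log2 fold changes of -0.04 and 0.09.

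Hcfc1, a cofactor of these methyltransferases, was the most abundant member in reads, at 338 and 345 CPM in control mice, compared with 367 and 365 CPM in Msi2 -/- mice (log2 fold change 0.10 with standard error 0.0618, adjusted p = 0.541 by edgeR). It is the only member on the X chromosome. Xist, the transcript of the inactive X, stood at 1455 and 654 CPM in control mice, compared with 0.469 and 0.624 CPM in Msi2 -/- mice. Y-linked genes summed to 41.1 and 184 CPM against 224 and 242 CPM, so both controls held Xist and Y-linked reads together. The groups thus differed in Xist as well as in genotype. For an X-linked gene, and for any other member whose level differs with sex, genotype and the sex of the mice or cells cannot be told apart.

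Dot1l, the methyltransferase that MLL fusions recruit, had 114 and 113 CPM in control mice, compared with 135 and 108 CPM in Msi2 -/- mice (log2 fold change 0.10 with standard error 0.123, 95% interval -0.24 to 0.43, adjusted p = 0.771 by edgeR). The Msi2 -/- libraries lay on either side of the controls. Mllt3 and Mllt1, for the YEATS-domain readers AF9 and ENL, also overlapped between the groups. Mllt3 had 28.2 and 26.8 CPM against 24.1 and 29.5 CPM (log2 fold change -0.04 with standard error 0.143, adjusted p = 0.93 by edgeR), and Mllt1 had 86.1 and 83.7 CPM against 86 and 73.3 CPM (log2 fold change -0.09 with standard error 0.0994, adjusted p = 0.724 by edgeR). Mllt10, for AF10, which supports DOT1L activity, had a log2 fold change of -0.12 (adjusted p = 0.559 by edgeR).

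The super elongation complex releases paused RNA polymerase through the kinase CDK9 and its cyclin. Cdk9 had 184 and 170 CPM in control mice, compared with 182 and 175 CPM in Msi2 -/- mice (log2 fold change 0.01, 95% interval -0.19 to 0.21). Ccnt1, for cyclin T1, had 24.5 and 27.3 CPM against 22.8 and 24.2 CPM (log2 fold change -0.14 with standard error 0.12, adjusted p = 0.652 by edgeR). The scaffold genes Aff4 and Aff1, both known as MLL fusion partners, had log2 fold changes of 0.16 (95% interval -0.04 to 0.35) and 0.03 (95% interval -0.16 to 0.22), and Ell, another partner, of 0.16 (95% interval -0.10 to 0.42). Kdm1a, for the demethylase LSD1, had 99.0 and 115 CPM against 98.9 and 91.6 CPM, with both Msi2 -/- values below both controls, replicate 1 by a small margin (log2 fold change -0.17 with standard error 0.104, adjusted p = 0.532 by edgeR).

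Levels can be compared between genes only per length, and for that CPM were divided by kilobases of merged exons. In the controls the elongation kinase Cdk9 was highest at 98.7 CPM per kb, followed by Wdr5 (75.2), Suz12 (73.9) and Dpy30 (72.1). The ranges of Wdr5, Suz12 and Dpy30 over the controls overlapped, so their order is not resolved, while both control values of Cdk9 (103 and 94.7 CPM per kb) lay above theirs. At the low end stood Cbx8 (1.70 CPM per kb), Cbx2 (1.92), Phc1 (2.13) and Cbx7 (2.95). The control ranges of the first 3 overlapped, and Cbx7 (2.85 and 3.04 CPM per kb) lay above all of them.

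Within families, particular paralogs were the abundant ones in these cells. Ezh2 stood at 41.3 and Ezh1 at 5.18 CPM per kb in the controls. Among CBX genes Cbx6 was highest at 13.8 CPM per kb, among PHC genes Phc2 at 14.7, and among MLL partners Aff1 at 25.3 and Mllt1 at 23.3, against 4.45 for Mllt3. Among PCGF genes Bmi1 was highest at 12.6 CPM per kb, just above Pcgf6 (11.3) and Pcgf1 (11.2), whose control ranges overlapped, and Pcgf2 (6.22), Pcgf5 (5.93) and Pcgf3 (4.65) were lower. Ccnt1, at 3.50 CPM per kb, was far below its kinase Cdk9. The lengths come from an annotation other than the one counted on, which moves levels between genes but not differences between libraries.

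**Figure D3:**
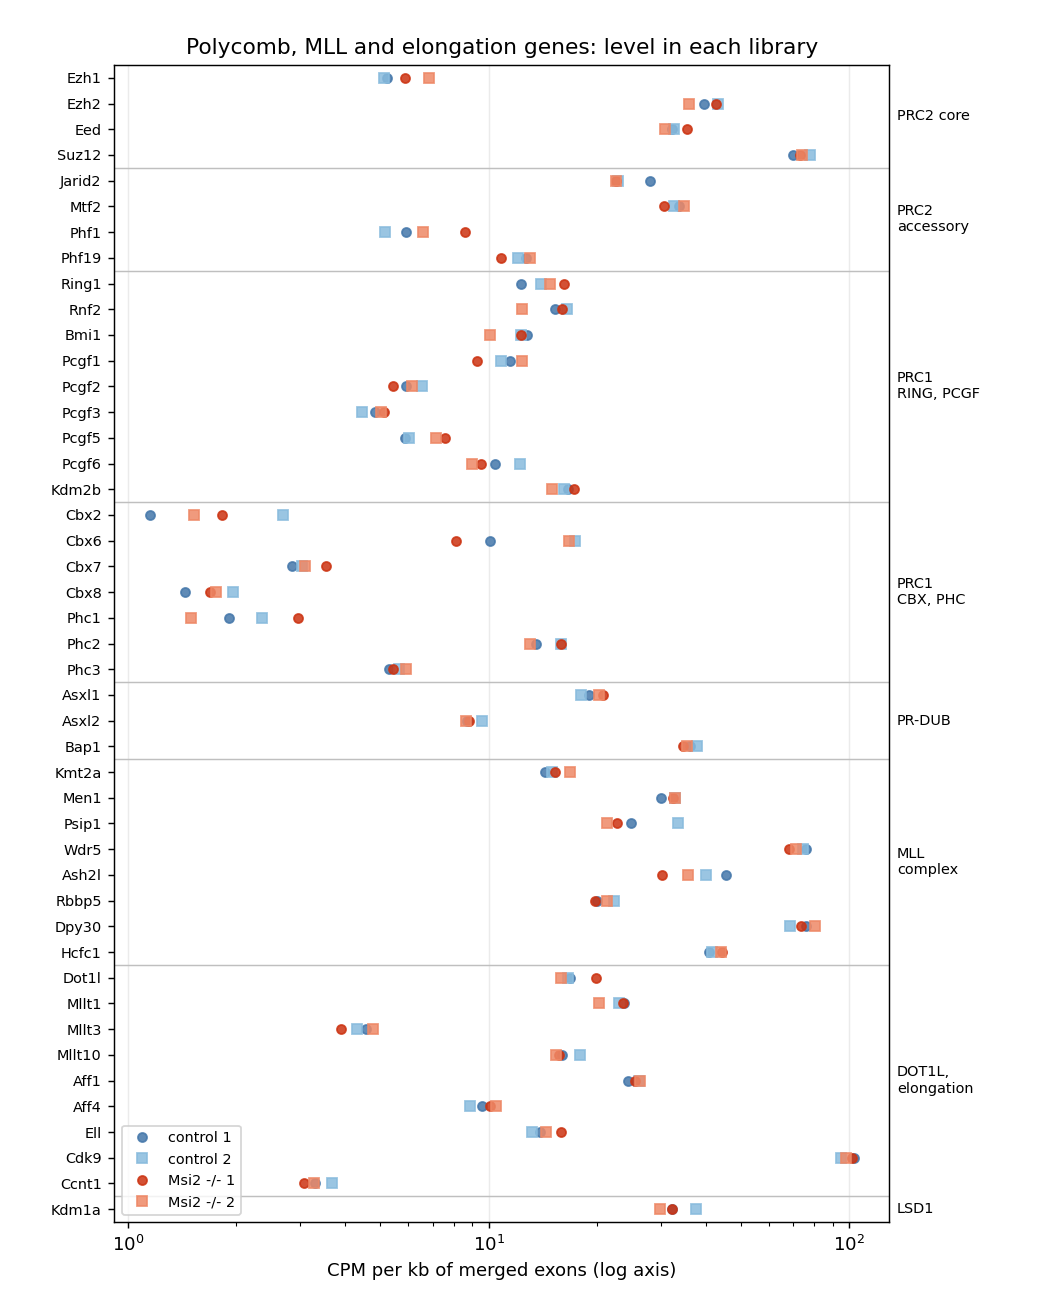
Level of each of the 45 genes (y axis, ordered by complex) in CPM per kb of merged exons (x axis, log scale), with 1 point for each of the 4 libraries. Levels span from 1.15 for Cbx2 in control 1 to 103 for Cdk9 in control 1, and for most genes the 4 points lie close together.

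Ratios of related genes within a library do not depend on library size. The count ratio of Ezh2 to Ezh1 was 3.48 and 3.88 in the controls and 3.34 and 2.42 in the Msi2 -/- libraries, lower in both Msi2 -/- libraries but close to control 1 in replicate 1. The ratio of Ring1 to Rnf2 was 0.488 and 0.518 against 0.614 and 0.727, a difference of 0.41 in mean log2 ratio, with group SDs of 0.0609 and 0.172. Both Msi2 -/- libraries lay above both controls.

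The ratio of Asxl2 to Asxl1 was 0.783 and 0.907 in the controls and 0.725 and 0.730 in the Msi2 -/- libraries. For Bmi1 to Pcgf2, Cbx8 to Cbx7, Cbx8 to Cbx2, Phf19 to Mtf2 and Mllt3 to Mllt1 the groups overlapped, and the Aff1 to Aff4 ratio was 2.15 and 2.47 against 2.11 and 2.10. With 2 mice per group an exact permutation test cannot pass 0.05 on any of these 9 ratios, and none was tested.

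**Figure D4:**
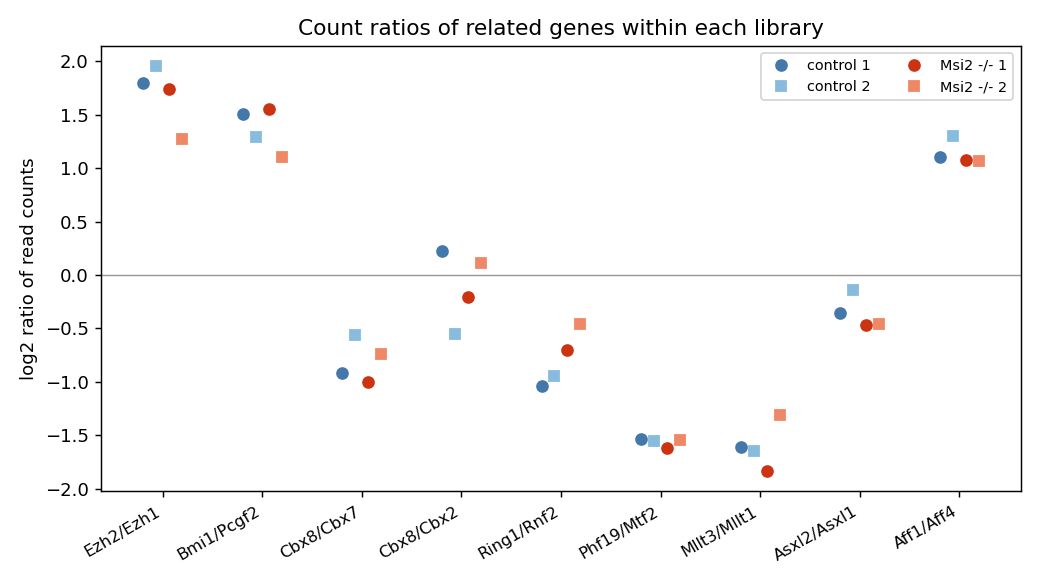
Log2 ratio of read counts (y axis) for 9 pairs of related genes (x axis), with 1 point for each of the 4 libraries; read counts are not corrected for gene length, so only differences between libraries can be read. The groups separate for Ring1 to Rnf2 (0.488 and 0.518 against 0.614 and 0.727 before taking logs), and more narrowly for Ezh2 to Ezh1, Asxl2 to Asxl1 and Aff1 to Aff4.

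Musashi proteins bind short RNA motifs with a UAG core, mostly in 3′ untranslated regions. The consensus was searched as GTAGT or ATAGT, and as the same letters with 1 or 2 further T before AGT, on the RNA strand only, in 1 transcript per gene of GENCODE vM21 (GRCm38). The sites below are the first after the stop codon in the members of smallest p that have one (Pcgf5, Ezh1, Psip1) and in the central enzymes and factors Kmt2a, Ezh2 and Bmi1, to show what such a match looks like; capitals mark the motif and T stands for U.
Pcgf5, chr19:36456297-36456317, plus strand: acgtctggGTAGTctaccatt
Ezh1, chr11:101192127-101192147, minus strand: ccctgtctGTAGTacctgctg
Psip1, chr4:83456894-83456914, minus strand: atgtttaaGTAGTtgggggaa
Kmt2a, chr9:44807736-44807756, minus strand: atgtgatcATAGTcttggaga
Ezh2, chr6:47530397-47530417, minus strand: agtaatttATAGTaatgtttt
Bmi1, chr2:18684506-18684528, plus strand: accccctgATTTAGTtaccttca

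Of the 43 members with a 3′ untranslated region of at least 100 bases, 31 (72.1%) held at least 1 match, against 69.3% of 11647 tested genes. The density was 1.97 matches per kb in the members and 1.98 per kb in all those genes. Pcgf5 and Psip1, which lay on opposite sides of 0, had 10 matches each, and Ash2l had 0. The median log2 fold change was -0.02 in members with a match and -0.01 in those without. Over all those tested genes it was -0.01 with a match and 0.03 without. A match of these letters is a description and shows no binding.

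Other genes of the same pathways gave similar counts by edgeR, with 0 past an adjusted p of 0.05 in every list. As background for the counts below, DESeq2 called 3.12% of all its genes higher and 2.73% lower. Of all genes tested by edgeR, 49.7% lay above 0 and 50.3% below. Of 26 tested Polycomb partners outside the list, 15 lay above 0 and 11 below (median 0.02), and DESeq2 called 2 higher. These were Mbd6, for a PR-DUB partner, at 114 and 121 CPM in the controls against 141 and 154 CPM (log2 fold change 0.33, adjusted p = 0.0273 by DESeq2), and Scml4, a Polycomb-related gene, at 0.395 and 0.206 CPM against 5.29 and 1.27 CPM (log2 fold change 3.44, adjusted p = 0.00396 by DESeq2). The Msi2 -/- mice were unequal for Scml4, whose log2 fold change ran from 2.08 without replicate 1 to 4.13 without replicate 2.

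Of 19 other MLL-family and partner genes, 14 lay above 0 and 5 below (median 0.12), and DESeq2 called 0. Setd1b, also on this list, could not be matched to a row. Kmt2d was left out because the row Mll2 carries an older symbol of both Kmt2b and Kmt2d. Kmt2b was read from the row Wbp7, and Mll2 was not used. E2f6 was counted both here and among the Polycomb partners. The smallest p was that of Kdm6a, for the demethylase that removes the PRC2 mark, at 86.1 and 66.2 CPM in the controls against 57.1 and 53.2 CPM (log2 fold change -0.47 with standard error 0.149, adjusted p = 0.36 by edgeR). Kdm6a is X-linked, and the part of the X-linked and Y-linked differences between the libraries in its values was not tested. Of 36 other elongation factors 11 lay above 0 and 25 below (median -0.04). Ice1, also on that list, could not be matched to a row, and Aff3 did not pass the filter on low counts. DESeq2 called 1, Nelfe (listed as Rdbp), for a subunit of the pausing factor NELF, at 92.8 and 87.6 CPM against 113 and 114 CPM (log2 fold change 0.33, adjusted p = 0.00503 by DESeq2).

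Of 13 LSD1 partners, 5 lay above 0 and 8 below (median -0.01). DESeq2 called 1 lower, the corepressor gene Rcor2, at 20.8 and 19.0 CPM in the controls against 12 and 6.93 CPM (log2 fold change -1.07 with standard error 0.303, adjusted p = 0.336 by edgeR, adjusted p = 0.0242 by DESeq2). Its log2 fold change was -0.73 without Msi2 -/- replicate 2 and -1.51 without replicate 1.

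Genes that these complexes are known to regulate were read beside them. Of 18 MLL target genes, 8 lay above 0 and 10 below (median -0.17). DESeq2 called 2 lower, Six4 (log2 fold change -0.85) and Myb (log2 fold change -0.39), where its background was 2.73% lower. Hoxa9 overlapped between the groups at 162 and 149 against 161 and 127 CPM (log2 fold change -0.11), and so did Meis1 at 67.6 and 71.9 against 96.6 and 69.0 CPM (log2 fold change 0.25). The Msi2 -/- mice stood far apart on other genes of this list, named after their values were seen. Eya1 had 81.4 and 73.7 CPM in the controls against 0.652 and 27.8 CPM, and Mecom 8.78 and 9.73 CPM against 0.0343 and 13.1 CPM. Replicate 1 was likewise low for Mef2c (33.4 against 211 CPM in replicate 2) and Bcl2 (2.93 against 18.4 CPM), and high for Pbx3 (99.6 against 15 CPM).

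Of 18 loci known as Polycomb targets only 9 had enough reads to be tested, 5 above 0 and 4 below, and the filter itself favours genes that are high in some library. The groups did not overlap for 3 loci on the higher side and 4 on the lower, where 23.7% and 24.6% of all genes tested did so. The 4 lower loci, named after their values were seen, were Hoxb3, Hoxb4, Gata3 and Igf2bp3. Their log2 fold changes were -2.14, -1.22, -2.22 and -0.46, with Gata3 at most 0.206 CPM in any library. DESeq2 called 2 loci higher and 0 lower, where its background was 3.12% higher and 2.73% lower. Cdkn2a, the classical locus silenced through Bmi1, had 17.6 and 9.95 CPM in the controls against 32.7 and 33.7 CPM (log2 fold change 1.27 with standard error 0.301, adjusted p = 0.315 by edgeR, adjusted p = 0.00216 by DESeq2), and Cdkn1a had 244 and 149 CPM against 364 and 403 CPM (log2 fold change 0.97, adjusted p = 0.00408 by DESeq2).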

How the data were processed

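The authors deposited raw read counts per gene symbol for 4 libraries. The submitters' processing notes name Trimmomatic, STAR, HTSeq, DESeq and mm9 without versions. No source used here names the annotation, strand setting or overlap mode, so reads of overlapping genes cannot be told apart. The 5 closing rows that name no gene (19.1% to 20.1% of counts) were left out. 3 counts correspond to 0.0343 to 0.0415 CPM. The chi-square per gene between replicates was 59.2 in controls and 144 in Msi2 -/-, so each library counts as 1 sample. Separate mice are stated by the series' design text.

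In R 4.3.3, edgeR 4.0.16 (filterByExpr with minimum count 10 and minimum total 15, TMM, quasi-likelihood, group only, two-sided) was fitted over 13215 genes and p-values were adjusted over all of them. Standard errors came from the F statistic, and 95% intervals used 2.7 standard errors. DESeq2 1.42.0 and limma 3.58.1 (voom) were alternatives. The edgeR and DESeq2 fits were tested on simulated data; limma-voom was not. Older symbols were matched through the RefSeq table of GRCm38.p6 (98.9% of rows). Exon lengths and 3′ regions are from GENCODE vM21.

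Members and lists were chosen with earlier results of these data known. Full statistics are given for members with an unadjusted edgeR p or a DESeq2 adjusted p under 0.05 and for 15 central members whatever their result; of each further list, up to 3 genes called by DESeq2, or else the gene of smallest p. Other members were named after their values were seen.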

Additional observations from a re-analysis of the deposited data

How the results depend on the processing

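With all libraries, 0 of 45 members were called under RLE or upper-quartile scaling, either other filter on low counts, limma-voom, the likelihood ratio test, an adjusted p of 0.1, the fit without genes of X and Y, and the replicate block; DESeq2 called 1 higher. Over all genes, where the main test called 0 higher and 1 lower, DESeq2 called 414 higher and 362 lower, the likelihood ratio test 120 and 192, no filter on low counts 6 lower, an adjusted p of 0.1 gave 2 lower, and limma-voom 0. Leaving out 1 library gave 0 to 23 higher and 0 to 83 lower over all genes, and 0 members by edgeR, but DESeq2, run this way after the data were seen, called 1 member lower without control 1 (Psip1) or without Msi2 -/- replicate 2 (Ash2l). The cause was not tested. The replicate block called 0 genes; the labels do not say that numbers pair mice, and deviations of same-numbered libraries had a correlation of 0.0101. The members' median log2 fold change ran from -0.02 to 0.04 with 1 library left out. The sign held in all 4 such fits for 23 members. It did not for the target genes Hoxa9 (-0.28 to 0.05) and Meis1 (-0.01 to 0.47), nor for the members Men1 (-0.01 to 0.12), Dot1l (-0.06 to 0.24), Ezh2 (-0.19 to 0.04), Eed (-0.06 to 0.13), Suz12 (-0.08 to 0.08), Rnf2 (-0.35 to 0.01), Cbx8 (-0.18 to 0.27), Mllt3 (-0.19 to 0.11), Mllt1 (-0.20 to 0.02), Cbx6 (-0.76 to 0.30), Cbx2 (-0.68 to 0.55), Phc1 (-0.50 to 0.47), Pcgf1 (-0.26 to 0.16), Mtf2, Phf19, Kdm2b, Phc2, Phc3, Asxl2, Rbbp5, Aff1 and Cdk9. Every member had at least 355 reads per library, and replicates differed by far more than sampling noise, so the number of mice, 2 per group, limits the intervals.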
